A study of Caenorhabditis elegans with 12 samples.

Results

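The genes described here are the machinery that makes microRNAs and acts with them in Caenorhabditis elegans. They are drsh-1, pash-1, dcr-1, xrn-2, alg-1, alg-2, ain-1, ain-2, nhl-2 and cgh-1, which are 10 of the 46726 gene IDs in the count table. They were listed by function, with earlier results of these data known, and each symbol was matched to its WormBase gene ID in the WBcel235 annotation. RNA selected for poly(A) tails came from whole animals of N2, the laboratory wild type, and of MT12993, a strain with the n4115 allele of the microRNA gene mir-71. Each genotype was sampled at day 0 and day 5 of adulthood in 3 libraries, described by the submitters as biological triplicates. All 4 groups were kept at 20 °C and received 5-fluorodeoxyuridine, which blocks DNA synthesis, at 0.1 mg/mL in their plates from about the molt to adulthood. Older animals had therefore also spent longer on the drug, and the effects of age and of drug exposure cannot be told apart. The mutant is 1 strain with 1 allele, and mature mir-71 is not measured in poly(A) libraries, so none of these values checks the genotype label.

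MicroRNAs are cut from nuclear primary transcripts by the nuclease Drosha and its RNA-binding partner Pasha, and the resulting hairpins are cut again by Dicer. The product is loaded onto an Argonaute protein, which binds a protein of the GW182 family, and this complex lowers the translation and the stability of messenger RNAs that pair with the microRNA seed. The exonuclease XRN-2 degrades microRNAs that leave Argonaute in the nematode. The comparison of genotypes bears on whether loss of mir-71 changes the mRNA of alg-1, an Argonaute gene, which is the question of the study's published work on a feedback between mir-71 and alg-1.

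The libraries held 20.5 to 65.2 M counts (M, mega, counts summed over genes). Levels are given as CPM, counts per M counts after scaling of the library totals with TMM factors. Along the first principal component, which held 80.8% of the variance of log2 CPM, day 5 libraries lay apart from day 0 libraries. The day 0 libraries were themselves spread widely, from -153 to -75.4, and replicate 1 of both genotypes lay nearest to day 5. Results that rest on those libraries are given with and without them. Summed CPM of 10 oocyte markers were 4410 to 6270 in N2 at day 0 and 11900 to 15300 at day 5. The sum of 10 sperm markers was 569 to 1400 CPM and then 3.82 to 6.64 CPM, and that of 10 body wall muscle markers 10900 to 18500 and then 1730 to 2010 CPM. For 10 intestine markers it was 37100 to 40700 and then 118000 to 177000 CPM. In whole animals, fewer cells of a type and less RNA per cell cannot be told apart.

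In N2, cgh-1 and drsh-1 rose between day 0 and day 5, and xrn-2 and ain-1 fell. In mir-71 mutants xrn-2 and pash-1 fell. At day 5, drsh-1 was lower in mutants than in N2. There alg-1 was higher in each mutant library than in each N2 library without passing the test (edgeR adjusted p = 0.126). The mean of cgh-1 was lower in mutants, also without passing (edgeR adjusted p = 0.0668). The groups did not overlap at day 5 for 6 of the 10 genes, against 38.4% of all genes. Tests are edgeR quasi-likelihood tests in 1 model of all 12 libraries, with p adjusted by Benjamini-Hochberg over 16764 genes and a threshold of 0.05. All 10 genes were tested. In N2 4 of the 10 were called (2 up, 2 down), near the share of all tested genes called with age there, 52.1% (23.8% up and 28.2% down). An unadjusted p under 0.05 was found for 5 of the 10, against 57.9% of all genes, and the groups did not overlap for 5, against 62%. In mutants 2 of the 10 were called, both down, against 52.3% of all genes (24.9% up and 27.4% down). An unadjusted p under 0.05 was found for 2 of the 10, against 57.8% of all genes, and the groups did not overlap for 2, against 59.1%. The median log2 change with age of the 10 genes was -0.08 in N2 and 0.06 in mutants, and over all tested genes it was -0.09 and 0.01.

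At day 0 none of the 10 genes was called between genotypes, against 0.131% of all genes (0.0716% higher and 0.0597% lower). None had an unadjusted p under 0.05 either, against 4.5% of all genes, and DESeq2 and limma also called none. For none of the 10 did the groups stay apart, against 9.32% of all genes. The 10 log2 differences of the full set of libraries were below 0, from -0.28 for nhl-2 to -0.07 for alg-2. The median was -0.18, and over all genes it was 0.0003. Over the 59 tested genes of the pathway lists described below it was -0.14, from -0.22 for decapping and cytoplasmic decay to 0.04 for the nuclear exosome list. Over 10 germline and 10 oocyte markers it was -0.17 and -0.14. The signs of ain-2, dcr-1, pash-1, cgh-1 and xrn-2 stayed below 0 in each alternative, and those of the other genes were not stable. Without mutant day 0 replicate 1 the values were 0.07 for alg-1 and 0.06 for ain-1, and without N2 day 0 replicate 3 or mutant day 0 replicate 2 the value for alg-2 was 0.09 or 0.02. With both libraries numbered 1 and mutant replicate 3 left out, alg-1, ain-1, drsh-1 and nhl-2 were above 0. Within the same-numbered pairs of libraries, whose deviations correlate at day 0, the mutant was lower in all 3 pairs for xrn-2, pash-1 and ain-2 and higher in all 3 for none of the 10. Over all tested genes it was lower in all 3 pairs for 18.6% and higher for 18.3%. At day 5, 1 of the 10 was called (drsh-1, lower), against 10.7% of all genes, of which 7.63% were higher and 3.1% lower in mutants. An unadjusted p under 0.05 was found for 6 of the 10, against 28.4% of all genes, and the groups did not overlap for 6 of the 10, against 38.4%. With RLE in place of TMM factors the split of all day 5 calls moved from 1279 higher and 519 lower to 1113 higher and 825 lower, and 1 of the 10 was still called. No gene of the 10 was called when the mutant age change was set against the N2 age change, against 0.555% of all genes. Of the 10, 2 (alg-1 and ain-1) had an unadjusted p under 0.05 there, against 14.3% of all genes, and DESeq2 called none of the 10. The N2 day 5 libraries enter both the N2 age comparison and the day 5 genotype comparison, so these 2 sets of values are not independent.

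**Figure D1:**
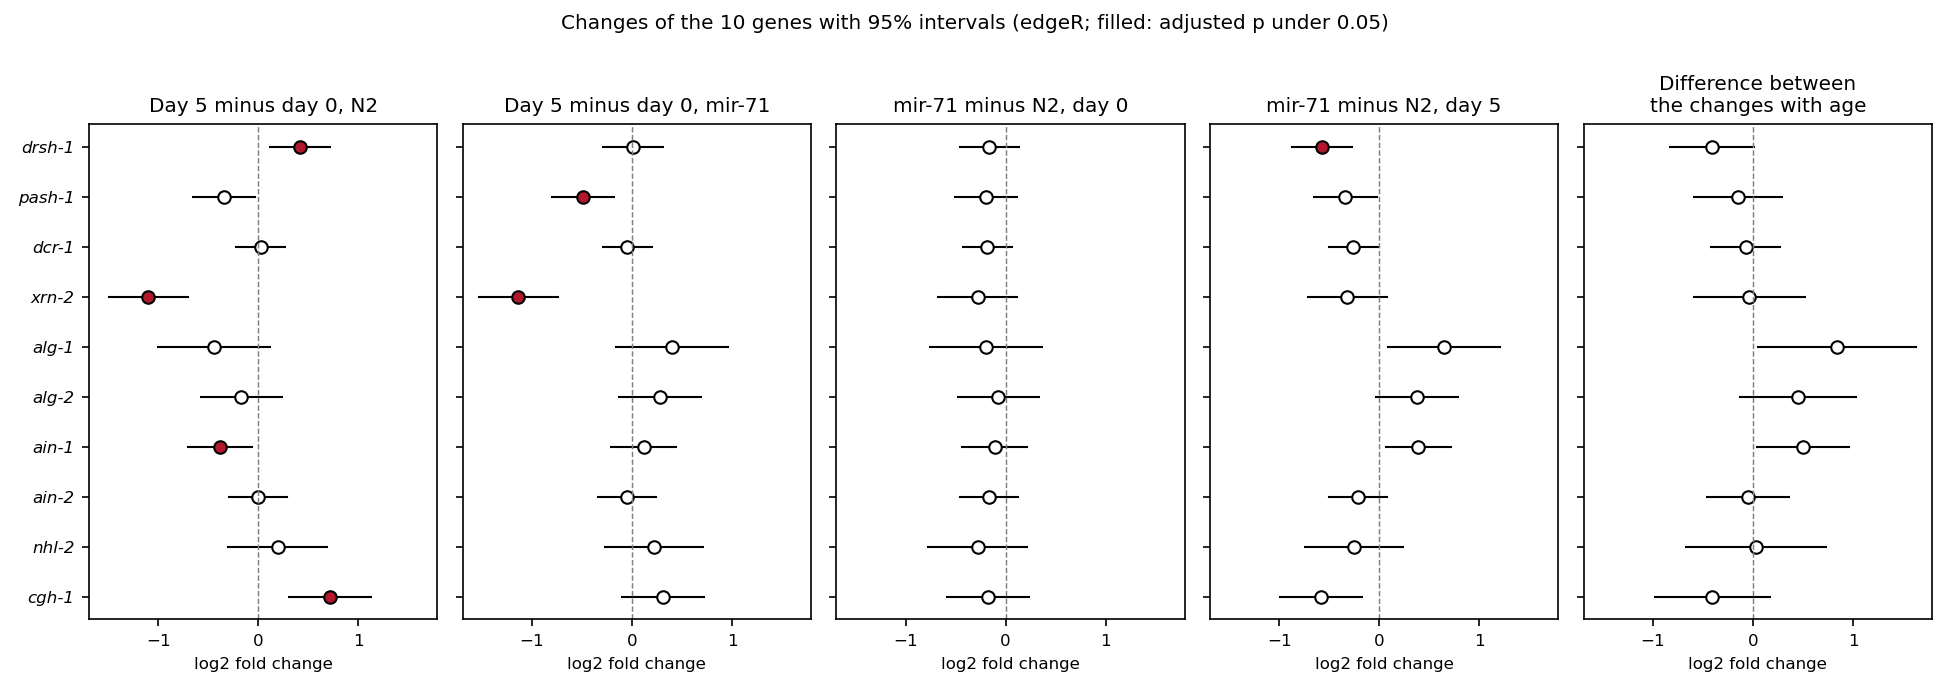
Log2 fold changes of the 10 genes with 95% intervals (edgeR) in the comparisons by age and by genotype, filled where the adjusted p is under 0.05. The xrn-2 intervals lie below 0 in both genotypes with age, and at day 5 the drsh-1 interval lies below 0 and the alg-1 interval runs from 0.08 to 1.20.

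Levels differed widely among the 10 genes. Per kilobase of annotated exon in N2 at day 0, cgh-1 stood first with 516 ± 57.2 CPM per kilobase (mean ± SD, n = 3), followed by ain-2 with 66.4 ± 5.50. The next were xrn-2 with 40.9 ± 6.08, ain-1 with 29.8 ± 1.61, nhl-2 with 27.2 ± 3.51 and pash-1 with 24.5 ± 2.11. Then came dcr-1 with 19.1 ± 1.56, drsh-1 with 17.5 ± 2.47, alg-2 with 11.8 ± 2.96 and alg-1 with 6.41 ± 1.00. The libraries overlapped between the neighbours ain-1 and nhl-2, nhl-2 and pash-1, and dcr-1 and drsh-1. In all 4 groups cgh-1 and ain-2 held the first places and alg-2 and alg-1 the last. The place of xrn-2 moved from the third at day 0 in both genotypes to the eighth in N2 and the seventh in mutants at day 5, where its libraries overlapped those of neighbours.

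The places of alg-1, alg-2 and pash-1 depend on the length used. The alg-1 exon union holds 6696 bases and its shortest annotated transcript 3072, and for pash-1 these are 2566 and 798. On the shortest transcripts the N2 day 5 levels were 10.3 CPM per kilobase for alg-1 and 13.7 for alg-2, and the mutant day 5 levels 16.1 and 17.8. In mutants at day 5 dcr-1 was then at 16.2, drsh-1 at 15.8 and xrn-2 at 15.3, so alg-2 and alg-1 were not the last there. For pash-1 in N2 at day 0 the level was 78.9 on the shortest transcript, which would place it after ain-2 (93.0) and before xrn-2 (40.9).

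**Figure D2:**
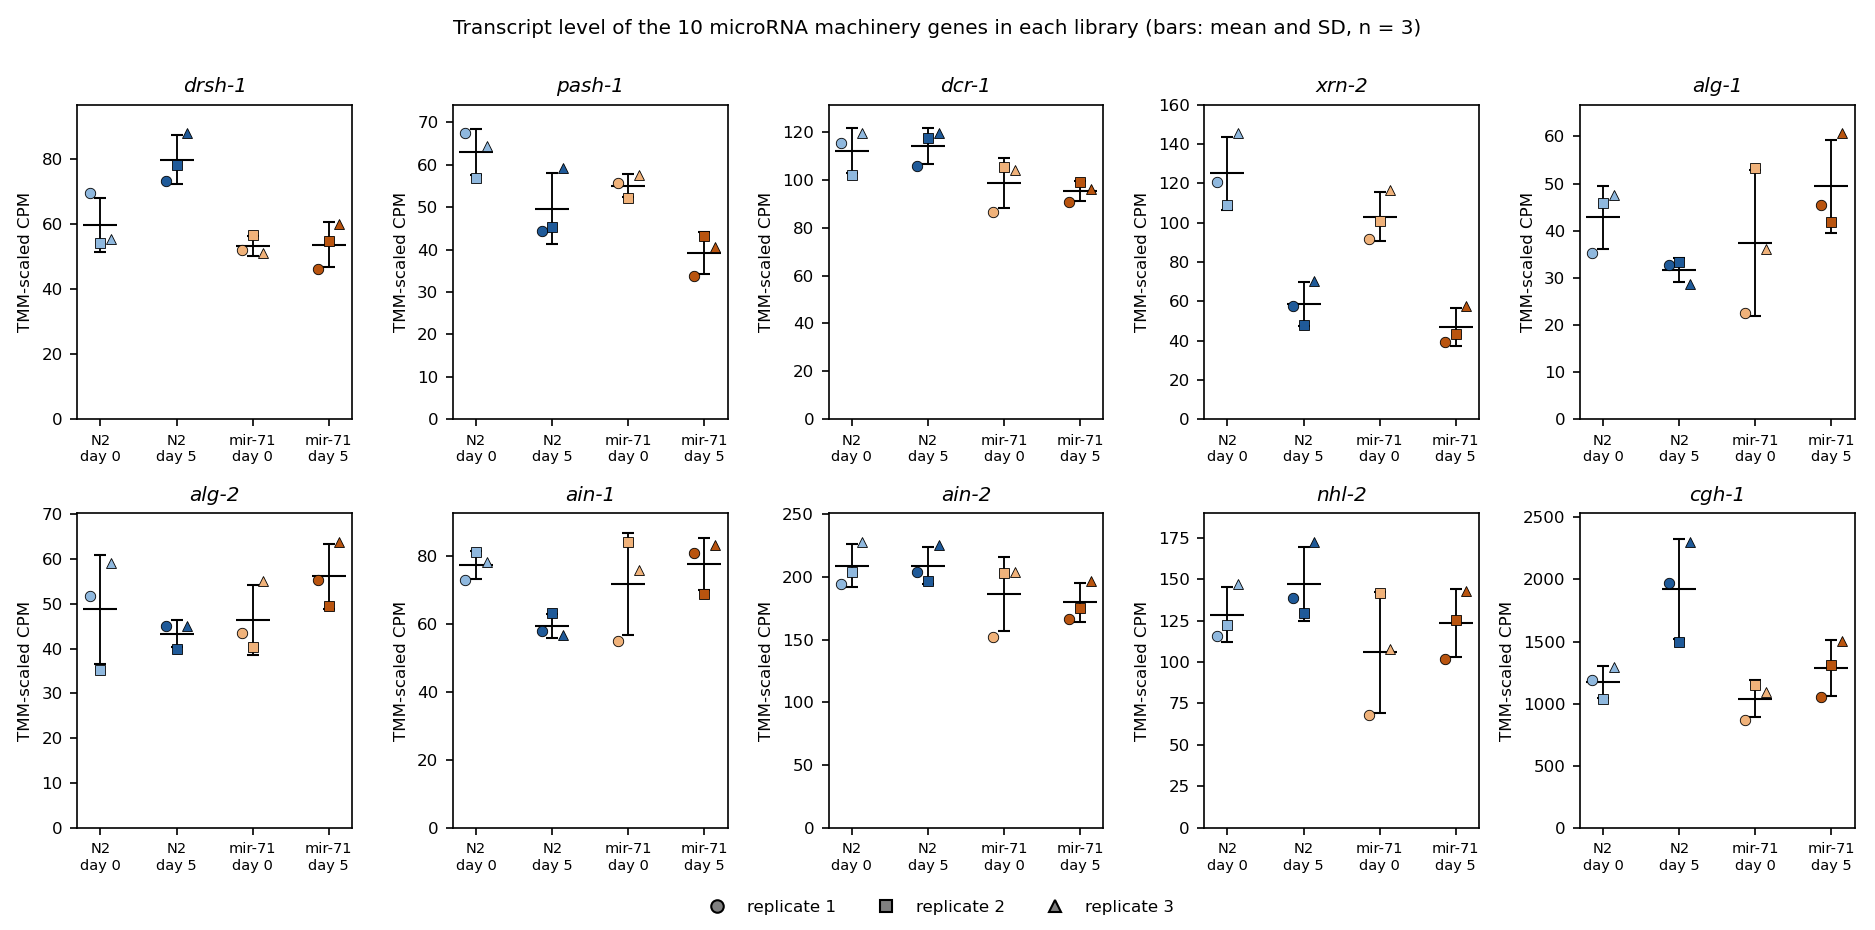
TMM-scaled CPM of each of the 10 genes in each of the 12 libraries by group, on linear axes from 0, with the mean and SD (n = 3) as bars and the replicate number as the marker shape. The xrn-2 libraries of day 5 lie below those of day 0 in both genotypes, and the mutant alg-1 libraries of day 0 spread from 22.6 to 53.4 CPM.

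Drosha is encoded by drsh-1 (WBGene00009163; chromosome I, 9781324 to 9785724, minus strand). In N2 it was 69.4, 54.3 and 55.4 CPM in day 0 replicates 1, 2 and 3, and 73.1, 78.0 and 87.9 CPM at day 5. In mutants the values were 52.1, 56.6 and 51.0 CPM at day 0, and 46.2, 54.7 and 59.9 CPM at day 5. All N2 libraries of day 5 lay above all other libraries, and the mutant ages overlapped. In N2, drsh-1 rose with age by a log2 of 0.42 ± 0.14 (SE, n = 3 per group, edgeR adjusted p = 0.0223). In mutants the log2 change was 0.01 ± 0.14 (adjusted p = 0.961, 95% interval -0.29 to 0.31). The age change was called in N2 and not in mutants. At day 5 drsh-1 was 1.49-fold lower in mutants than in N2, a log2 of -0.57 ± 0.14 (edgeR adjusted p = 0.0217). The difference between the genotypes' age changes was -0.41 ± 0.19 and did not pass (edgeR adjusted p = 0.366). Summed CPM of 10 germline markers at day 5 were 2190 to 3250 in N2 and 1690 to 2260 in mutants, and their part in the drsh-1 difference was not tested.

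Both drsh-1 calls depended on single libraries. The N2 age call was lost without N2 day 0 replicate 2 (edgeR adjusted p = 0.0882), day 0 replicate 3 (0.0842) or day 5 replicate 3 (0.0873), and with upper-quartile factors (0.0824). It was also lost with no filter (0.0579) and without both day 0 libraries numbered 3 (0.107). The day 5 call was lost without N2 day 5 replicate 3 (0.101), mutant day 5 replicate 1 (0.11) or 2 (0.0533), or both day 0 libraries numbered 3 (0.0502). The drsh-1 exons share 90 bases with gpx-1 on the opposite strand, which held 5786 counts over all libraries against 30470 for drsh-1. Whether counting used strand is not known here, so reads in those bases are uncertain.

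Pasha, the RNA-binding partner that Drosha needs, is encoded by pash-1 (WBGene00011908; chromosome I, 10598673 to 10606621, plus strand). In N2 it was 67.4, 56.9 and 64.5 CPM at day 0, and 44.5, 45.3 and 59.2 CPM at day 5. In mutants the levels were 55.7, 52.1 and 57.5 CPM at day 0, and 33.7, 43.3 and 40.7 CPM at day 5. The N2 ages overlapped through day 5 replicate 3, whereas all mutant libraries of day 5 lay below all mutant libraries of day 0. In mutants pash-1 fell with age by 0.49 ± 0.14 on the log2 scale (SE, n = 3 per group, edgeR adjusted p = 0.0122). In N2 the log2 change was -0.34 ± 0.14 (adjusted p = 0.0617). The age changes differed between genotypes by -0.15 (95% interval -0.59 to 0.29). At day 5 all mutant libraries lay below all N2 libraries, by a log2 of -0.34 ± 0.14 (edgeR adjusted p = 0.144). The pash-1 calls depended on libraries and settings. The mutant call was lost without mutant day 5 replicate 1 (edgeR adjusted p = 0.0581) or both day 0 libraries numbered 3 (0.0572). In N2 pash-1 was called without N2 day 5 replicate 3 (0.016) or mutant day 0 replicate 1 (0.0475), with upper-quartile factors (0.00785) and by limma voom (0.0457).

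The ratio of drsh-1 to pash-1 counts within a library does not depend on the scaling of that library. This ratio was looked at after the values of both genes had been seen, so it is given as a description. In N2 it was 1.03, 0.954 and 0.859 at day 0, and 1.64, 1.72 and 1.48 at day 5. In mutants the ratio was 0.936, 1.09 and 0.887 at day 0, and 1.37, 1.27 and 1.47 at day 5. The 6 day 0 libraries lay below the 6 day 5 libraries with no overlap. The mean ratio went from 0.947 to 1.62 in N2 and from 0.97 to 1.37 in mutants. Averaged over the 2 genotypes, the log2 difference between ages was 0.64, or 1.55-fold. Leaving out each library in turn kept the log2 difference between 0.60 and 0.68.

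**Figure D3:**
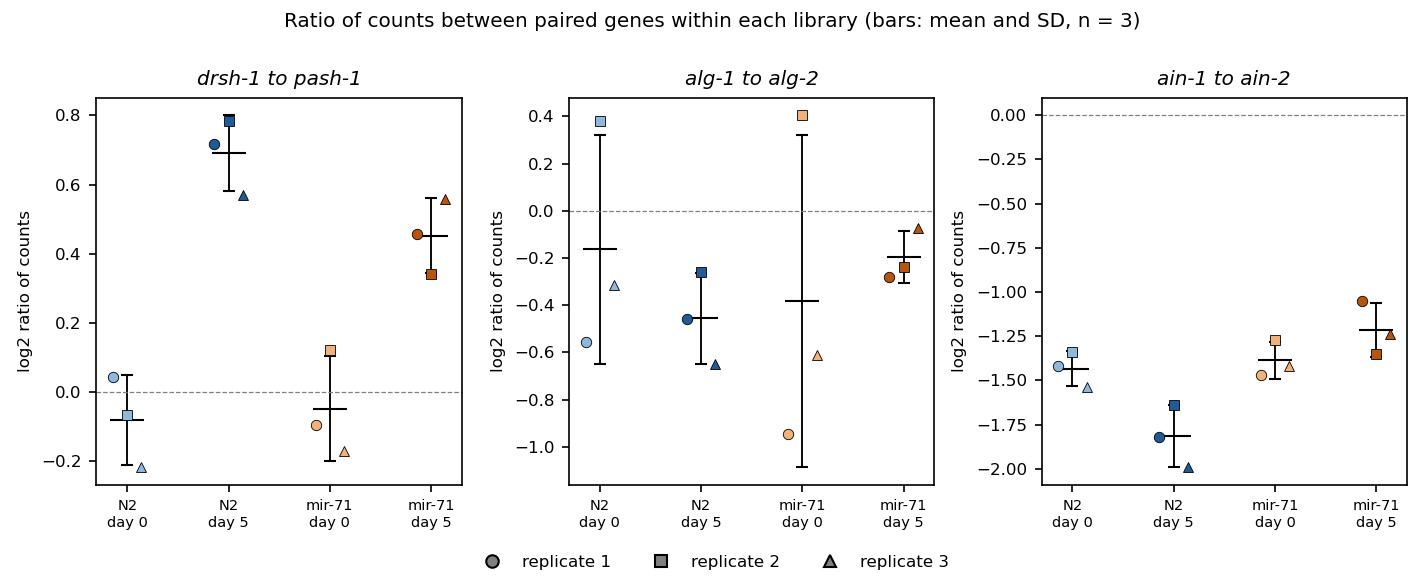
Log2 ratio of counts between 2 genes of a pair within each library, by group, for alg-1 to alg-2, ain-1 to ain-2 and drsh-1 to pash-1, with the mean and SD (n = 3) as bars. The day 5 libraries lie above the day 0 libraries for drsh-1 to pash-1, and for alg-1 to alg-2 both day 0 libraries numbered 2 lie above the other day 0 libraries.

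Dicer, which cuts microRNA hairpins and also long double-stranded RNA in the siRNA pathways, is encoded by dcr-1 (WBGene00000939; chromosome III, 8071967 to 8080281, minus strand). N2 libraries held 115.4, 102 and 119.5 CPM at day 0, and 106, 117 and 119.5 CPM at day 5. In mutants the levels were 86.5, 105 and 104 CPM at day 0, and 90.8, 99.2 and 96.1 CPM at day 5. The ages overlapped in both genotypes. The log2 change with age was 0.02 in N2 (95% interval -0.22 to 0.27) and -0.05 in mutants (-0.29 to 0.20), and with upper-quartile factors the N2 value was -0.11. At day 5 all mutant libraries lay below all N2 libraries, by a log2 of -0.26 ± 0.11 (SE, n = 3 per group), which did not pass (edgeR adjusted p = 0.154).

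The largest change with age among the 10 genes, in both genotypes, was that of xrn-2 (WBGene00006964; chromosome II, 14155768 to 14166030, plus strand). XRN-2 is a nuclear 5′ to 3′ exonuclease that also works in transcription termination and ribosomal RNA processing. In N2 xrn-2 was 121, 109 and 146 CPM at day 0, and 57.6, 47.7 and 70.2 CPM at day 5. In mutants it was 92.0, 101 and 117 CPM at day 0, and 39.3, 43.6 and 57.7 CPM at day 5. Every day 5 library lay below every day 0 library. The level fell 2.14-fold in N2 (log2 -1.10 ± 0.18, SE, n = 3 per group, edgeR adjusted p = 0.000321). In mutants it fell 2.20-fold (log2 -1.14 ± 0.18, edgeR adjusted p = 0.000247). Both calls held under each alternative scaling, filter, tool and block, and without each library in turn. The difference between the 2 age changes was -0.04, with a 95% interval of -0.59 to 0.52. The genotype difference was -0.28 ± 0.18 at day 0 and -0.32 ± 0.18 at day 5, and neither passed (edgeR adjusted p = 0.906 and 0.276).

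The Argonautes that carry most microRNAs in the nematode soma are encoded by the related genes alg-1 and alg-2. The gene alg-1 (WBGene00000105) lies on the X chromosome (13949110 to 13956261, plus strand). In N2 it was 35.3, 45.9 and 47.6 CPM at day 0, and 32.8, 33.3 and 28.7 CPM at day 5. In mutants it was 22.6, 53.4 and 36.1 CPM at day 0, and 45.5, 41.9 and 60.7 CPM at day 5. In N2 all day 5 libraries lay below all day 0 libraries. In mutants the ages overlapped, and at day 5 all mutant libraries lay above all N2 libraries. Genotype groups without overlap at day 5 were found for 6 of the 10 genes and for 38.4% of all genes. The group means were 42.9 ± 6.68 and 31.6 ± 2.53 CPM in N2, and 37.4 ± 15.4 and 49.4 ± 9.95 CPM in mutants (SD, n = 3).

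None of the alg-1 differences passed the test. The log2 change with age was -0.44 ± 0.26 in N2 (SE, n = 3 per group, 95% interval -1 to 0.12, edgeR adjusted p = 0.172). In mutants it was 0.40 ± 0.26 (interval -0.16 to 0.96, adjusted p = 0.211). The 2 age estimates had opposite signs, and both intervals included 0. At day 5 alg-1 was 1.56-fold as high in mutants as in N2, a log2 of 0.64 ± 0.26 (interval 0.08 to 1.20, unadjusted p = 0.0279, adjusted p = 0.126, edgeR). The difference between the age changes was 0.84 ± 0.36 (interval 0.05 to 1.63, edgeR unadjusted p = 0.0389, adjusted p = 0.324). At day 0 the log2 difference was -0.20 ± 0.26 (edgeR adjusted p = 0.962).

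The side of the threshold on which alg-1 fell at day 5 depended on which libraries set the spread. With the 6 day 5 libraries fitted alone it was called (edgeR adjusted p = 0.0219), and with a replicate block within age too (0.0242). It was also called without both day 0 libraries numbered 1 (0.0448), and without these and mutant day 0 replicate 3 (0.0211). Over all genes the day 5 calls in these settings were 2770, 3604, 2184 and 2614 in turn, against 1798 in the main setting. Without mutant day 0 replicate 1 the edgeR adjusted p of alg-1 was 0.0453, and without mutant day 0 replicate 2 it was 0.05. Over all 25 alternatives the log2 difference stayed above 0, between 0.38 and 0.75. Without mutant day 0 replicate 2 alg-1 was also called as rising with age in mutants (log2 0.75, adjusted p = 0.0148), and with 3 day 0 libraries left out that value was -0.16. In N2 the fall with age was called without both day 0 libraries numbered 1 (log2 -0.59, adjusted p = 0.0312) and with the N2 libraries fitted alone (adjusted p = 0.0324).

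Marker sums also differed between the genotypes at day 5. The summed level of 10 neuron markers was 448 to 560 CPM in N2 and 618 to 714 CPM in mutants, and that of 10 body wall muscle markers 1730 to 2010 and 3090 to 3520 CPM. For 10 epidermis and cuticle markers it was 269 to 357 and 429 to 586 CPM, and for 10 sperm markers 3.82 to 6.64 and 6.93 to 16.4 CPM. These 4 sums were higher in each mutant library than in each N2 library, while the oocyte, intestine and germline sums overlapped. An unadjusted p under 0.05 was found for 7 of 10 neuron, 7 of 10 muscle, 3 of 10 epidermis and 0 of 10 sperm markers, against 28.4% of all genes. Of these, 4, 5, 1 and 0 were called, all higher in mutants, against 10.7% of all genes (edgeR). The germline sum was 2190 to 3250 CPM in N2 and 1690 to 2260 CPM in mutants. At day 0 the intestine sum was 37100 to 40700 CPM in N2 and 22200 to 27000 CPM in mutants, while the other sums overlapped. There 5 of 10 intestine markers had an unadjusted p under 0.05, against 4.5% of all genes, and 0 were called (edgeR). None of these markers was at 0 in every library. Their part in the alg-1 difference was not tested.

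**Figure D4:**
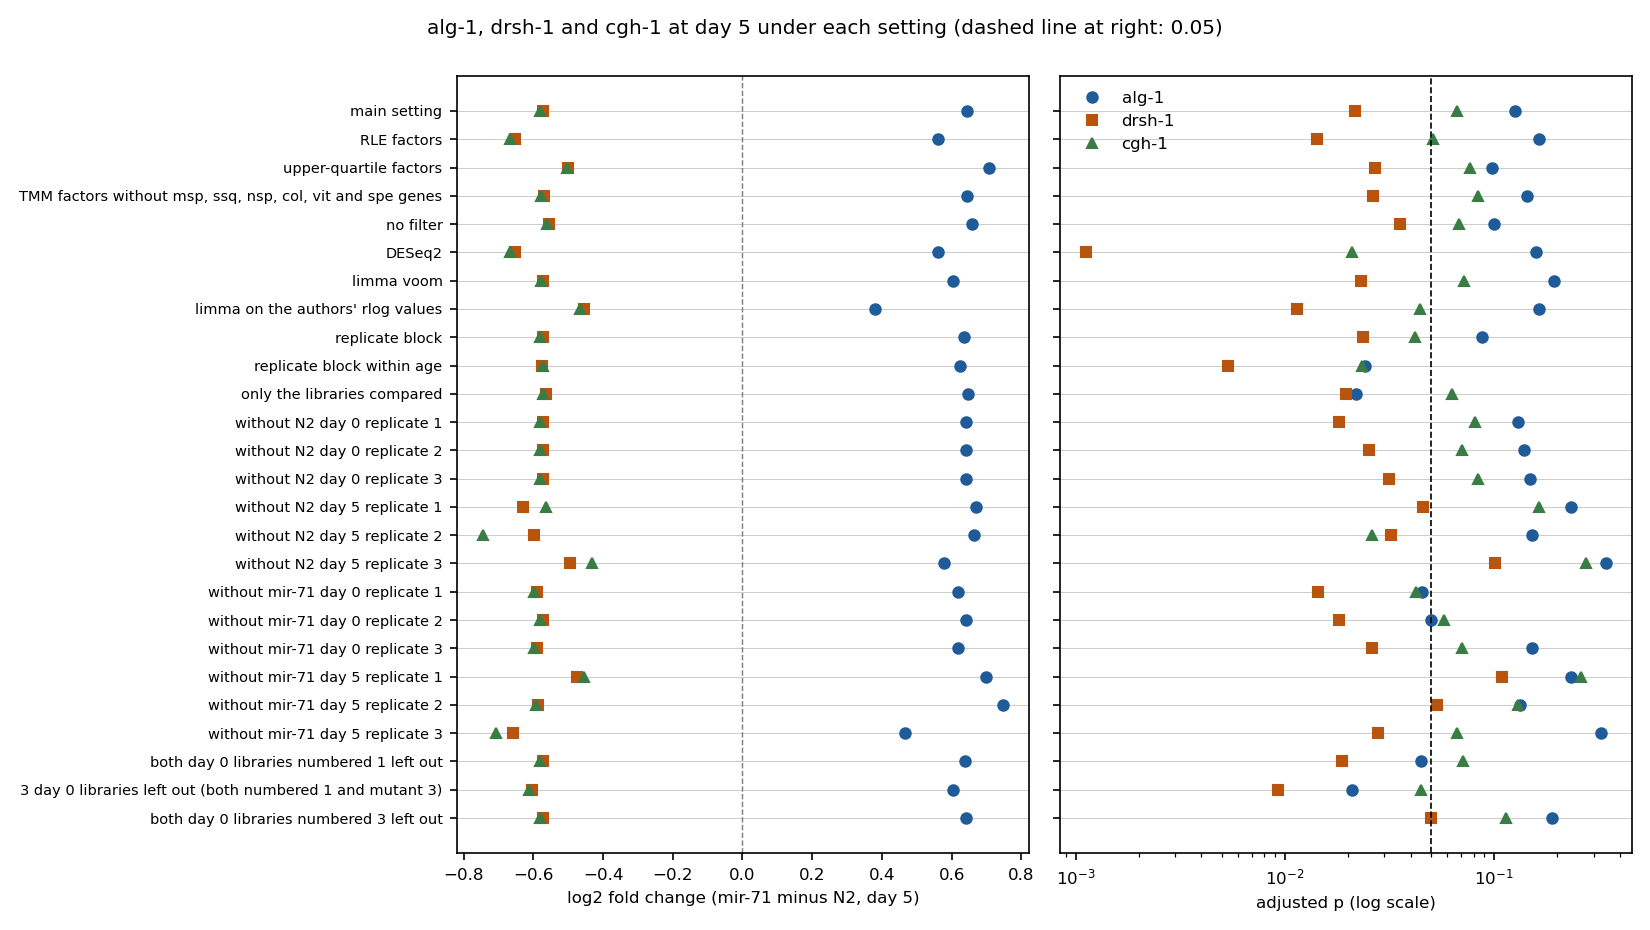
Log2 difference between mutants and N2 at day 5 (left) and its adjusted p on a log axis (right) for alg-1, drsh-1 and cgh-1 under each alternative, with the dashed line at right at 0.05. The alg-1 points stay between 0.38 and 0.75 at left and lie on both sides of the line at right.

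The second of these Argonautes, alg-2 (WBGene00000106), lies on chromosome II (873212 to 879885, plus strand). N2 libraries held 51.8, 35.2 and 59.2 CPM at day 0, and 45.1, 39.9 and 45.0 CPM at day 5. In mutants the levels were 43.5, 40.3 and 55.2 CPM at day 0, and 55.3, 49.4 and 63.8 CPM at day 5. The ages overlapped in both genotypes, and at day 5 all mutant libraries lay above all N2 libraries. The log2 difference at day 5 was 0.37 ± 0.19 (SE, n = 3 per group, interval -0.03 to 0.78, edgeR adjusted p = 0.215). The log2 change with age was -0.17 ± 0.19 in N2 and 0.28 ± 0.19 in mutants (edgeR adjusted p = 0.474 and 0.234).

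The ratio of alg-1 to alg-2 counts set 2 day 0 libraries apart. It was 1.30 in N2 replicate 2 and 1.32 in mutant replicate 2, and between 0.52 and 0.804 in the other 4 day 0 libraries. At day 5 the ratio was 0.638 to 0.835 in N2 and 0.824 to 0.951 in mutants. The libraries with the high ratio lay farthest from day 5 on the first principal component, at -145 and -153. The genes are close paralogs and how the counter treated shared reads is not stated, so reads that fit both are uncertain.

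The GW182-family proteins AIN-1 and AIN-2 link Argonaute to the machinery that removes poly(A) tails. The gene ain-1 (WBGene00015547; chromosome X, 16613451 to 16616871, plus strand) was 72.8, 81.0 and 78.3 CPM in N2 at day 0, and 57.9, 63.3 and 56.7 CPM at day 5. In mutants it was 54.9, 84.1 and 75.9 CPM at day 0, and 80.8, 68.8 and 83.2 CPM at day 5. In N2 the ages did not overlap, and in mutants they did. In N2 ain-1 fell with age by 0.38 ± 0.15 on the log2 scale (SE, n = 3 per group, edgeR adjusted p = 0.0467). This call was close to the threshold. It was lost without N2 day 0 replicate 1 (0.0559), 2 (0.119) or 3 (0.1), N2 day 5 replicate 1 (0.117) or 3 (0.122), or any 1 of the mutant day 5 libraries (0.0504 to 0.0606, edgeR). It was also lost with RLE factors (0.0568) or no filter (0.0599), with DESeq2 (0.0717), with limma voom (0.0675) and with limma on the authors' rlog values (0.0594). The log2 change stayed between -0.25 and -0.40 in these 5 settings.

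In mutants the log2 change of ain-1 with age was 0.12 ± 0.15 (edgeR adjusted p = 0.541). At day 5 all mutant libraries lay above all N2 libraries, by a log2 of 0.39 ± 0.15 (interval 0.06 to 0.71, edgeR unadjusted p = 0.0227, adjusted p = 0.112). It was called there without mutant day 0 replicate 1 (edgeR adjusted p = 0.041). The difference between the age changes was 0.50 ± 0.21 (edgeR unadjusted p = 0.0348, adjusted p = 0.311). Across the 12 libraries log2 CPM of ain-1 and alg-1 had a Pearson r of 0.903, the highest of the 45 pairs among the 10 genes. These libraries fall into 2 ages and share the spread among day 0 libraries, so the value is a description.

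The homologue ain-2 (WBGene00015007; chromosome I, 4653467 to 4660153, plus strand) showed no called change. It was 194, 204 and 228 CPM in N2 at day 0, and 204, 197 and 225.5 CPM at day 5. In mutants it was 152, 203 and 204 CPM at day 0, and 167, 175 and 197 CPM at day 5. The groups overlapped in each comparison. The log2 change with age was -0.0002 in N2 (95% interval -0.29 to 0.29) and -0.05 in mutants (-0.34 to 0.24). The ratio of ain-1 to ain-2 counts was 0.343 to 0.396 in N2 at day 0 and 0.251 to 0.321 at day 5. In mutants the ratio was 0.36 to 0.414 at day 0 and 0.392 to 0.484 at day 5, so at day 5 each mutant library lay above each N2 library.

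The cofactors NHL-2 and CGH-1 join the silencing complex and strengthen its action on some targets. NHL-2 is a TRIM-NHL protein, encoded by nhl-2 (WBGene00003598; chromosome III, 4893658 to 4899085, minus strand). N2 libraries held 116, 122.5 and 147 CPM at day 0, and 139, 129.8 and 172.5 CPM at day 5. In mutants the values were 68.1, 141.5 and 108 CPM at day 0, and 102, 125 and 143 CPM at day 5. The groups overlapped in each comparison, and mutant day 0 replicate 1 was the lowest library. The log2 change with age was 0.19 ± 0.23 in N2 and 0.22 ± 0.23 in mutants (SE, n = 3 per group, edgeR adjusted p = 0.5 and 0.437). With both day 0 libraries numbered 1 left out the mutant value was -0.04.

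CGH-1 is a DEAD-box RNA helicase of the DDX6 family, found in P bodies and in granules of the germline and oocytes. Its gene cgh-1 (WBGene00000479; chromosome III, 7495320 to 7497832, minus strand) was 1189, 1034 and 1292 CPM in N2 at day 0, and 1973, 1499 and 2303 CPM at day 5. In mutants it was 869.9, 1152 and 1092 CPM at day 0, and 1054, 1307 and 1502 CPM at day 5. In N2 all day 5 libraries lay above all day 0 libraries, and in mutants day 5 replicate 1 lay within the day 0 range. In N2 cgh-1 rose 1.64-fold with age (log2 0.72 ± 0.19, SE, n = 3 per group, edgeR adjusted p = 0.00692), and the call held under each alternative. In mutants the log2 change was 0.31 ± 0.19 (interval -0.10 to 0.72, edgeR adjusted p = 0.187), and the changes differed by -0.41 ± 0.27 (edgeR adjusted p = 0.522). The oocyte marker sum rose alongside in N2 as given above, and from 4230 to 5370 CPM at day 0 to 11900 to 13900 CPM at day 5 in mutants. Its part in the cgh-1 change was not tested.

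At day 5 the log2 difference of cgh-1 between mutants and N2 was -0.58 ± 0.19 (edgeR adjusted p = 0.0668), and 1 mutant library, replicate 3 with 1502 CPM, lay just above the lowest N2 library with 1499 CPM. The cgh-1 difference was called with a replicate block (edgeR adjusted p = 0.0421) or a replicate block within age (0.0235), by DESeq2 (0.021) and by limma on the authors' rlog values (0.0443). It was also called without N2 day 5 replicate 2 (edgeR adjusted p = 0.0262) or mutant day 0 replicate 1 (0.0424). At day 5 the oocyte markers had a median log2 difference of -0.16 with 0 of 10 at an unadjusted p under 0.05. The germline markers had a median of -0.39 with 5 of 10 at an unadjusted p under 0.05 and 0 called (edgeR). Their part in the cgh-1 difference was not tested.

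Other genes of the pathway were taken from 6 lists, of which 59 of 62 symbols were matched and tested. In N2, 20 of the 59 rose with age and 14 fell, and in mutants 14 rose and 20 fell. The 34 called in each genotype stand beside 52.1% and 52.3% of all genes called. Their median log2 change was -0.02 in N2 and -0.19 in mutants, beside -0.09 and 0.01 over all genes. At day 0 none of the 59 was called between genotypes against 0.131% of all genes (edgeR; 2 had an unadjusted p under 0.05, and DESeq2 and limma called none). At day 5, 3 were called, all lower in mutants, against 10.7% of all genes (3.1% lower). That count was 0 without N2 day 5 replicate 1 or 3 or mutant day 5 replicate 1 or 2, 8 without N2 day 5 replicate 2, and 9 and 6 without mutant day 0 replicates 1 and 2. Over all genes the day 5 calls in these settings were 753, 602, 626, 1173, 2141, 2378 and 2279 in turn, against 1798 in the main setting. None of the 59 was called for the difference between age changes, against 0.555% of all genes (5 with an unadjusted p under 0.05, and none by DESeq2 or limma). Without mutant day 0 replicate 2, 1 of the 59 was called there, and 460 of all genes against 93.

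Decapping, P body and cytoplasmic decay genes included the partners of CGH-1. Of 10, 5 rose and 1 fell in N2, where 23.8% of all genes rose and 28.2% fell, and 5 rose and 3 fell in mutants, where 24.9% rose and 27.4% fell. The decapping enzyme gene dcap-2 rose by a log2 of 1.15 ± 0.14 in N2 and 1.12 ± 0.14 in mutants (SE, n = 3 per group, edgeR adjusted p = 2.75e-05 and 2.92e-05). Its scaffold gene edc-4 rose by 0.82 ± 0.13 and 1.01 ± 0.13 (adjusted p = 0.000239 and 5.03e-05). The gene lsm-1, of the ring that binds shortened poly(A) tails, rose by 1.05 ± 0.19 in N2 (adjusted p = 0.000627). Its mean in mutants went from 43.65 CPM at day 0 to 67.7 CPM at day 5. The translational repressor gene car-1 fell by 1.28 ± 0.23 in mutants (adjusted p = 0.000495), and in N2 its mean went from 999 to 592.5 CPM. At day 5 car-1 was lower in mutants than in N2, with a log2 of -0.76 ± 0.22 (adjusted p = 0.0486), and so was ifet-1, another translational repressor gene, at -0.58 ± 0.15 (adjusted p = 0.0312). This day 5 count of 2 of the 10 stands beside 10.7% of all genes called, 3.1% lower. The count was 0 without N2 day 5 replicate 1 or 3 or mutant day 5 replicate 1 or 2. Over all genes the day 5 calls there were 753, 602, 626 and 1173, against 1798. The list count was 1 without any 1 of the N2 day 0 libraries, mutant day 0 replicate 3 or mutant day 5 replicate 3. Between 1186 and 1745 of all genes were called in those settings.

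Among other factors of microRNA biogenesis and action, 2 of 12 rose and 5 fell in each genotype, that is 7 called, where 52.1% of all genes were called in N2 and 52.3% in mutants. The uridylyltransferase gene pup-2 rose by a log2 of 1.28 ± 0.17 in N2 and 1.35 ± 0.17 in mutants (SE, n = 3 per group, edgeR adjusted p = 6.14e-05 and 4.1e-05). In N2 lin-28, whose product blocks let-7 processing, rose by 1.17 ± 0.14 (adjusted p = 3.24e-05). Its mean in mutants went from 53.8 CPM at day 0 to 95.3 CPM at day 5. The casein kinase subunit gene kin-3 fell by 0.77 ± 0.10 in N2 and by 0.71 ± 0.10 in mutants (adjusted p = 5.87e-05 and 0.000101). The RNA-binding protein gene hrpk-1 fell by 1.08 ± 0.14 in mutants (adjusted p = 4.29e-05), and in N2 its mean went from 246 to 162 CPM. At day 5 hrpk-1 was lower in mutants than in N2, at -0.53 ± 0.14 (adjusted p = 0.0297). That call was lost without N2 day 5 replicate 1 or 3 or mutant day 5 replicate 1 or 2.

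Of 8 genes whose products work with Dicer in siRNA pathways, 5 rose and 1 fell in N2, and 1 rose and 2 fell in mutants. The shares of all genes were 23.8% up and 28.2% down in N2, and 24.9% and 27.4% in mutants. Without mutant day 0 replicate 1 the mutant count of 3 was 6. The double-stranded RNA binding protein gene rde-4 rose by a log2 of 0.82 ± 0.11 in N2 and 0.62 ± 0.11 in mutants (SE, n = 3 per group, edgeR adjusted p = 6.09e-05 and 0.000434). The helicase gene drh-3 fell by 0.73 ± 0.12 and by 0.81 ± 0.12 (adjusted p = 0.000232 and 0.000106). In N2 eri-5, of the complex that Dicer forms for endogenous siRNAs, rose by 1.05 ± 0.19 (adjusted p = 0.000485), and in mutants drh-1 fell by 0.57 ± 0.16 (adjusted p = 0.00905). The mean of eri-5 in mutants went from 35.85 to 48.1 CPM with age, and that of drh-1 in N2 from 45.1 to 36.8 CPM.

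Of 13 genes for the XRN-2 partner and the nuclear exosome, 2 rose and 3 fell in N2, and 2 rose and 8 fell in mutants. Of all genes, 23.8% rose and 28.2% fell in N2, and 24.9% rose and 27.4% fell in mutants. The gene of the XRN-2 partner, paxt-1, rose by a log2 of 0.88 ± 0.12 in N2 and 0.70 ± 0.12 in mutants (SE, n = 3 per group, edgeR adjusted p = 8.13e-05 and 0.000421), while xrn-2 fell in both. The exosome helicase gene mtr-4 fell by 0.60 ± 0.10 and by 0.67 ± 0.10 (adjusted p = 0.000241 and 0.000108). The exosome subunit gene exos-4.2 rose by 0.75 ± 0.16 in N2 (adjusted p = 0.00158), and exos-7 fell by 0.91 ± 0.16 in mutants (adjusted p = 0.000526). The mean of exos-4.2 in mutants went from 44.3 to 59.5 CPM with age, and that of exos-7 in N2 from 44.8 to 30.4 CPM.

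The deadenylation list, which AIN proteins act through, had 4 of 12 up and 3 down in N2, and 2 up and 2 down in mutants, beside 52.1% and 52.3% of all genes called. The N2 count of 7 was 4 without N2 day 0 replicate 3, and the mutant count of 4 was 8 without mutant day 0 replicate 1. The deadenylase subunit gene panl-2 rose by a log2 of 0.77 ± 0.13 in N2 and 0.89 ± 0.13 in mutants (SE, n = 3 per group, edgeR adjusted p = 0.000276 and 9.26e-05), and ntl-3 of the CCR4-NOT complex fell by 1.02 ± 0.20 and by 1.19 ± 0.20 (adjusted p = 0.00105 and 0.000347). The deadenylase gene ccr-4 rose by 0.58 ± 0.14 in N2 (adjusted p = 0.00392), and pab-2, a poly(A)-binding protein gene, rose by 1.96 ± 0.25 in mutants (adjusted p = 4.75e-05). The mean of ccr-4 in mutants went from 232 to 288 CPM with age, and that of pab-2 in N2 from 89.4 to 161 CPM. Of 4 other TRIM-NHL genes, relatives of nhl-2, 2 rose and 1 fell in N2, and 2 rose in mutants. The N2 count of 3 was 1 without N2 day 0 replicate 1 or N2 day 5 replicate 1, and 0 without N2 day 0 replicate 2. In N2 nhl-1 rose by 0.89 ± 0.30, ncl-1 rose by 0.55 ± 0.20 and nhl-3 fell by 0.45 ± 0.15 (adjusted p = 0.0238, 0.0324 and 0.0274). In mutants nhl-1 rose by 1.86 ± 0.30 and ncl-1 by 1.01 ± 0.20 (adjusted p = 0.000269 and 0.000947).

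**Figure D5:**
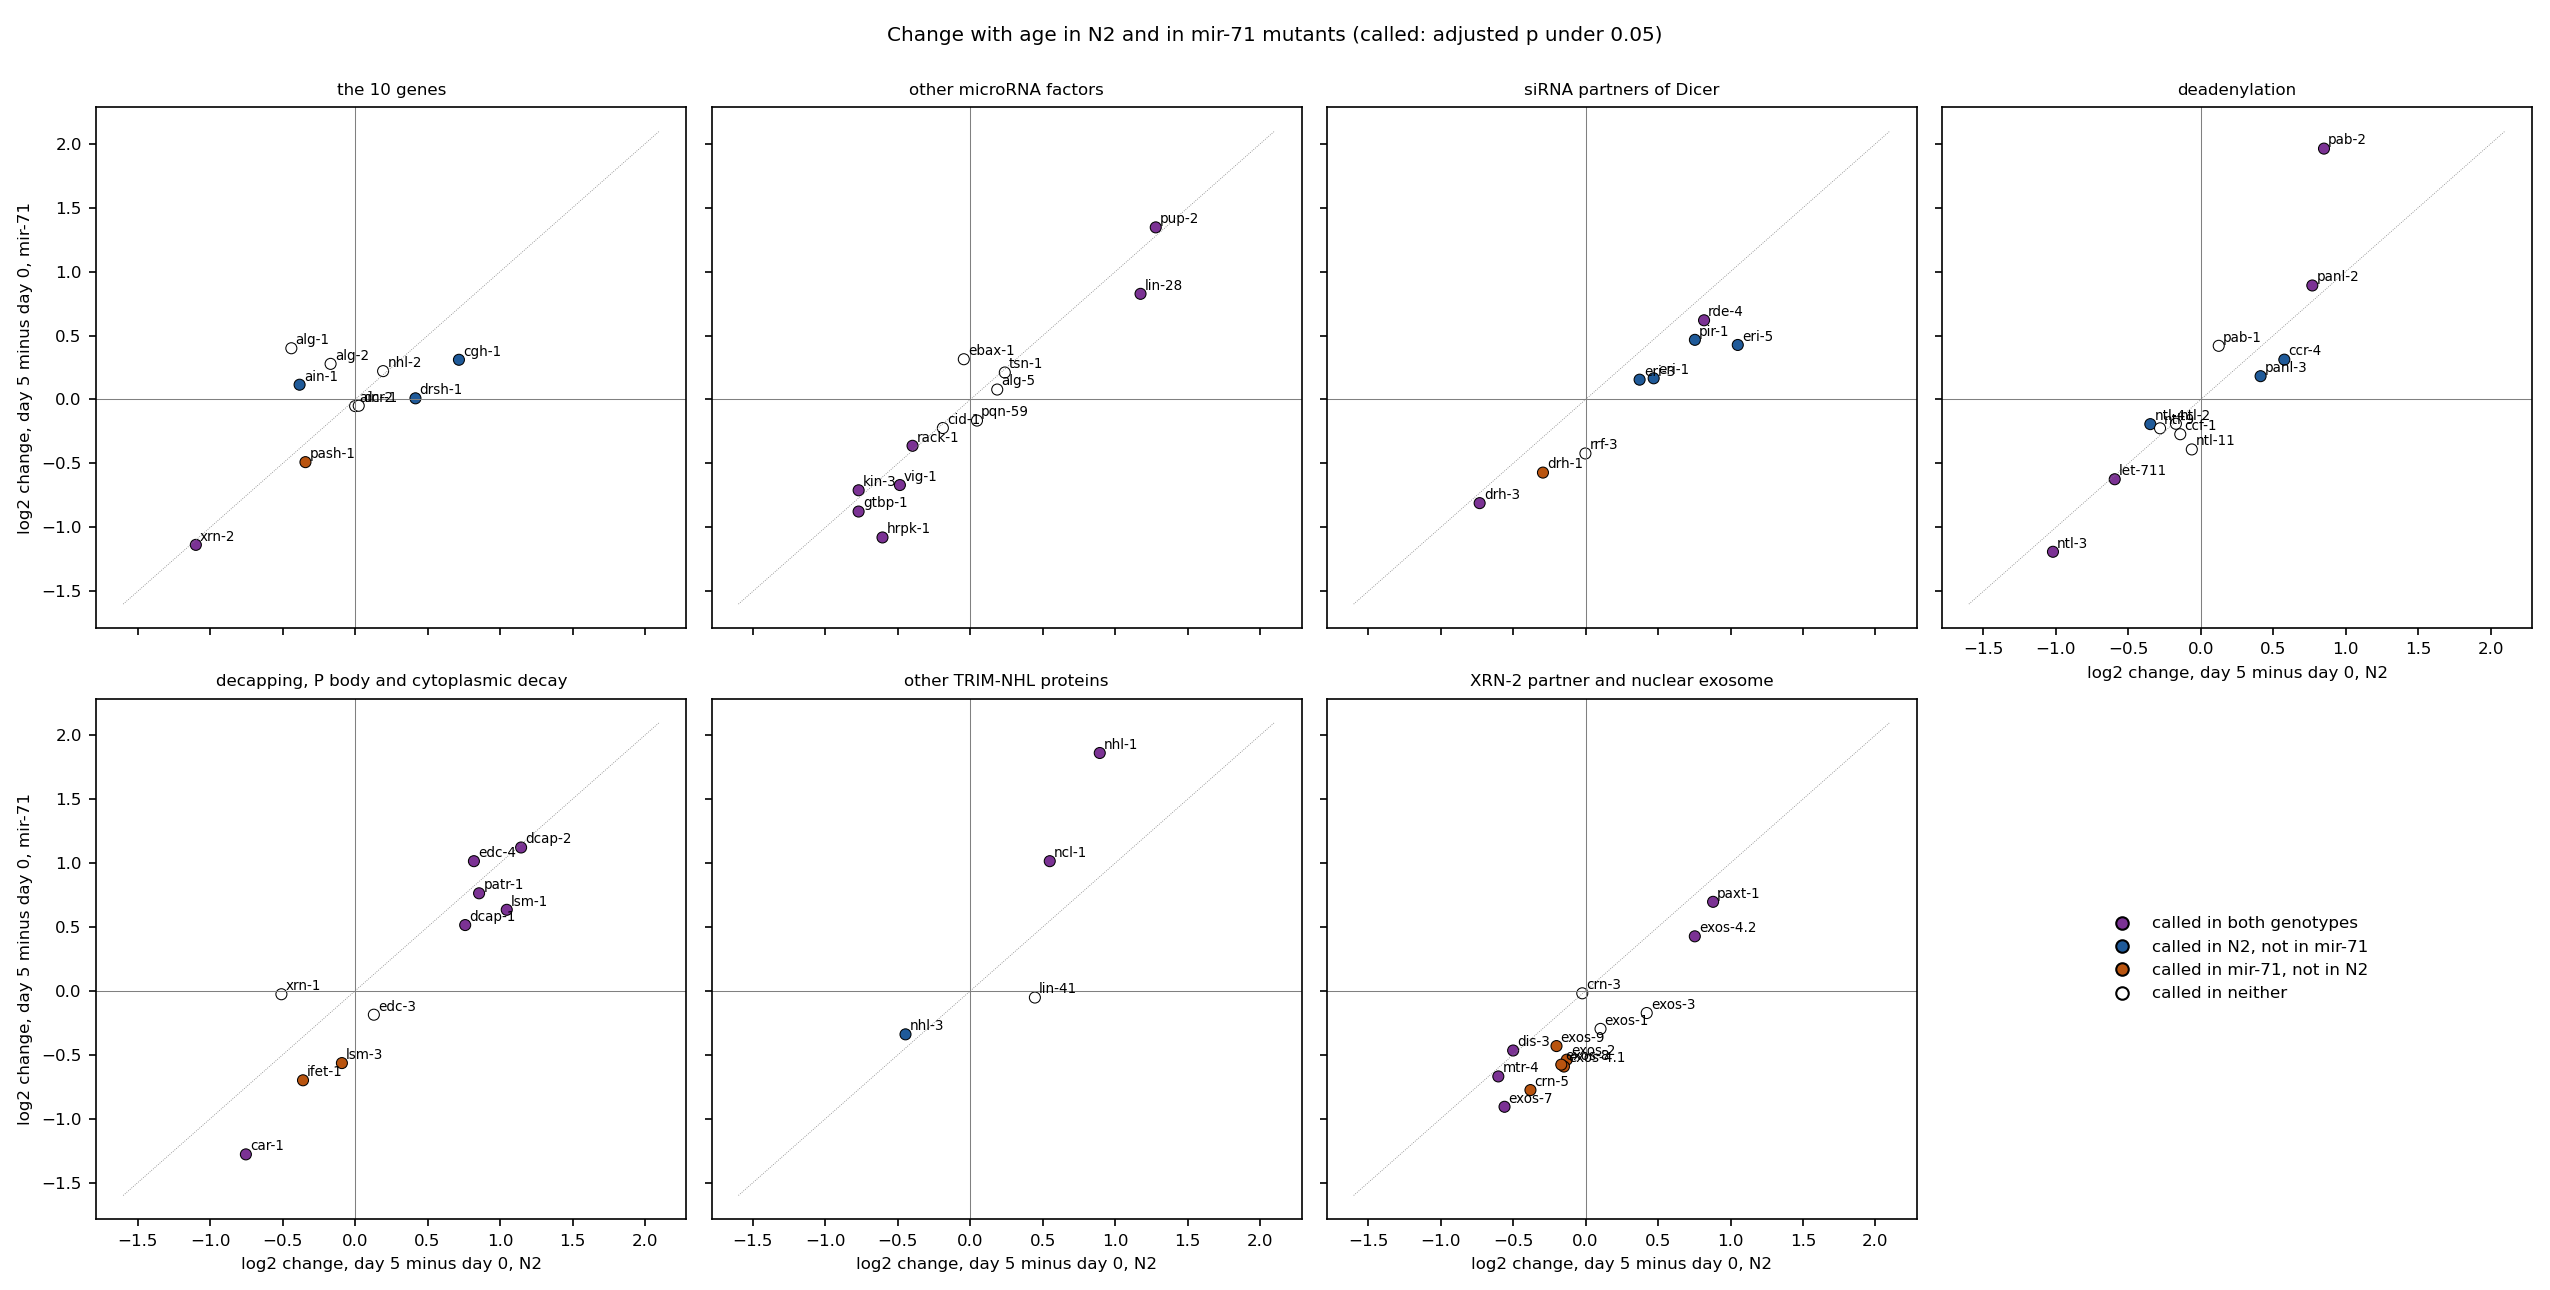
Log2 change with age in N2 (horizontal axis) against mir-71 mutants (vertical axis) for the 10 genes and for each of the 6 pathway lists, coloured by the genotypes in which the adjusted p was under 0.05, with the dotted line marking equal change. xrn-2 lies near the line at -1.10 and -1.14, and paxt-1 lies at 0.88 and 0.70.

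The genes whose log2 CPM followed each member most closely were sought among 4980 other named genes by Pearson correlation over the 12 libraries. Both age and the spread of libraries within groups enter these values, which are given as descriptions. They were sup-37 (0.96) and hda-4 (0.957) for alg-1, eat-20 (0.85) and dod-23 (0.814) for alg-2, and unc-73 (0.958) and ptr-5 (0.955) for ain-1. For ain-2 they were vps-15 (0.961) and gld-4 (0.958), for dcr-1 xpo-3 (0.914) and smc-6 (0.903), and for drsh-1 panl-3 (0.951) and hsf-1 (0.95). For pash-1 they were mma-1 (0.979) and gip-1 (0.973), and for nhl-2 mel-28 (0.976) and cbp-1 (0.967). The pairs were apd-3 (0.982) and par-4 (0.981) for cgh-1, and ears-1 and toe-1 (0.992 each) for xrn-2. No gene came as close to alg-2 or dcr-1 as the best matches of the other 8. Among the 10 genes themselves, pash-1 and xrn-2 followed each other with an r of 0.89, ain-2 and nhl-2 with 0.851, ain-2 and dcr-1 with 0.831, and drsh-1 and cgh-1 with 0.829. The partners drsh-1 and pash-1 had an r of 0.227, and the paralogs alg-1 and alg-2 0.333.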

How the data were processed

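The authors deposited a table of read counts per gene and library, whole numbers that were not scaled, and log2 values of the same libraries named rlog per the labels of that table. The submitters' processing notes name STAR 2.4.0h, DESeq2 and the build WBcel235. Which counter, annotation and strand setting made the counts is not stated, and replicates were not pooled per the labels. All per-sample columns were used.

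The rest was computed in R 4.3.3. Library totals were scaled by TMM (factors of 0.868 to 1.17) and genes filtered with filterByExpr, which left 16764 genes. edgeR 4.0.16 fitted 1 quasi-likelihood model of 4 group means to the 12 libraries (common dispersion 0.0714, 8 residual degrees of freedom), without a replicate block, and p was adjusted by Benjamini-Hochberg within each of 5 contrasts at 0.05. The standard error is the absolute log2 fold change over the square root of F. Log2 CPM used a prior count of 2. Exon lengths, coordinates and overlaps come from the Ensembl 115 annotation of WBcel235.

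The 10 genes, the pathway lists and the tests were chosen with earlier results of these data known. From each list up to 3 called genes with the smallest p were named per contrast. A gene named for 1 genotype may therefore have changed in the other too. For likeness the 2 genes with the highest correlation and a mean of at least 3 log2 CPM were named. The p-values and standard errors rest on the spread between the 3 libraries within a group. The model pools that spread over all 4 groups, including groups not compared. Totals of 20.5 to 65.2 M gave each of the 10 genes at least 548 counts in each library, and 3 counts amounted to 0.045 to 0.157 CPM. Replicates differed beyond counting error (chi-square per gene of 22.8 to 308). Deviations from the group means correlated between same-numbered libraries of the 2 genotypes at day 0 (r of 0.76, 0.66 and 0.28, against -0.76 to 0.15 for unlike numbers). The labels do not state a pairing, and 3 libraries per genotype can fall in the same order without one. Whether the samples were paired was not tested, and same-numbered pairs at day 0 are used as a description. Alternatives were RLE, upper-quartile and reduced TMM factors, no filter, DESeq2 1.42.0, limma 3.58.1 (voom, and on the rlog values), replicate blocks, only the libraries compared, each library left out in turn and groups of day 0 libraries left out. No sequences are given, since the reference used here held none.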

Additional observations from a re-analysis of the deposited data

How the results depend on the processing

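Over 25 alternatives no change of a called gene reversed. The N2 age count of 4 genes ranged from 2 to 5 on leaving out each library, and the mutant count of 2 from 1 to 3. The day 5 count of 1 ranged from 0 to 4, and the other counts stayed at 0. Over all genes the N2 age, mutant age and day 5 counts ranged from 7460 to 9283, 7671 to 8827 and 602 to 2378. The day 0 and difference counts of all genes ranged from 5 to 19 and from 10 to 460. With no filter the N2 count was 2, and over all genes it was 8398 against 8729. With both day 0 libraries numbered 3 left out, chosen after seeing the data, the N2, mutant and day 5 counts were 2, 1 and 0. Over all genes they were 7322, 7512 and 1093. With 3 day 0 libraries left out, likewise chosen afterwards, the mutant and day 5 counts were 1 and 3, and over all genes 8010 and 2614. At day 5 the count was 2 with DESeq2 and with limma on rlog values, 3 with the 6 libraries alone and 3 without both day 0 libraries numbered 1. Over all genes the day 5 count in those settings was 2841, 2242, 2770 and 2184 in turn, against 1798 in the main setting.

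The replicate block gave 4, 2, 0 and 2 called genes in N2, mutants, day 0 and day 5, and the block within age gave 0 at day 0 and 3 at day 5; at day 0, where the numbers pair the libraries, the pairing changed no call. In the other comparisons at least 1 same-numbered correlation was at or below 0.1 and the samples share only a number. Of all genes, the replicate block called 9237, 9282, 26 and 2396 in N2, mutants, day 0 and day 5. The block within age called 73 at day 0 and 3604 at day 5, against 22 and 1798 without a block.

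Uncalled values changed sign; the cause was not tested. Of these, the main log2 values over 0.1 in size were 0.40 for alg-1, 0.22 for nhl-2 and 0.12 for ain-1 with mutant age, and -0.28 for nhl-2, -0.20 for alg-1, -0.16 for drsh-1 and -0.11 for ain-1 at day 0; the others lay between -0.07 and 0.03. For N2 age, ain-2 gave 0.0211 with RLE and 0.0213 with DESeq2, 0.0148 with rlog, 0.0024 with the replicate block and 0.0655 without both libraries numbered 3, and dcr-1 gave -0.109 with upper-quartile factors. For mutant age, drsh-1 gave -0.0407 with RLE, -0.0533 with upper-quartile and -0.00714 with reduced TMM factors, -0.00478 with no filter, -0.0406 with DESeq2, -0.00577 with voom, -0.0316 with rlog and -0.0226 with the libraries compared alone. Without both day 0 libraries numbered 1, mutant age values were -0.0316 for drsh-1, -0.0733 for ain-1 and -0.0407 for nhl-2, and day 0 values 0.0121 for alg-2 and 0.00571 for ain-1. Without 3 day 0 libraries, mutant age values were -0.118 for drsh-1, -0.155 for alg-1, -0.157 for ain-1 and -0.237 for nhl-2, and day 0 values 0.187 for alg-1, 0.0728 for ain-1, 0.041 for drsh-1 and 0.0634 for nhl-2. Without both libraries numbered 3, mutant age values were -0.0249 for drsh-1 and 0.0126 for ain-2. The difference between age changes of nhl-2 was -0.0438 (RLE), -0.044 (DESeq2), -0.00192 (rlog), -0.141 (both libraries numbered 1 left out), -0.347 (3 libraries left out) and -0.0697 (both numbered 3 left out), and with upper-quartile factors it was 0.0228 for ain-2 and 0.0375 for xrn-2.

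On leaving out each library, 12 values changed sign: mutant age of ain-1 (-0.0936 to 0.245), ain-2 (-0.227 to 0.0115), drsh-1 (-0.0901 to 0.108) and nhl-2 (-0.0612 to 0.488), N2 age of ain-2 (-0.058 to 0.0663) and dcr-1 (-0.0415 to 0.0782), day 0 of ain-1 (-0.244 to 0.062), alg-1 (-0.551 to 0.0739) and alg-2 (-0.26 to 0.0913), and the difference of ain-2 (-0.211 to 0.0138), nhl-2 (-0.237 to 0.297) and xrn-2 (-0.215 to 0.113). The log2 ratio of alg-1 to alg-2 ranged from -0.193 to 0.144 with age and from -0.177 to 0.16 with genotype.

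Counts over all genes moved by over 1.5 times between genotypes at day 0 (22 genes; 0 to 73), at day 5 (1798; 602 to 3604) and for the difference (93; 7 to 1045). In the 6 lists together the age counts of 34 and 34 ranged from 25 to 39, the day 5 count of 3 from 0 to 12, and the count of 0 for the difference was 1 with the replicate block within age. Upper-quartile factors moved the median N2 age change of all genes from -0.09 to -0.22; relative to that shift the N2 change of dcr-1 stayed above it. With 3 libraries per group the day 5 difference had a 95% interval of -0.51 to -0.01 for dcr-1 and of 0.08 to 1.20 for alg-1; the spread between libraries sets these widths.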
